A study of Homo sapiens with 2 samples.

Results

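Chromosomes fold into topologically associating domains, within which DNA makes more contacts than across their edges, and a boundary is the edge between adjacent domains. The boundaries described here were present in the domain list of mock-treated cells and had no counterpart nearby in the list of cells given fatty acids. They were chosen by position: all domain starts and ends of a list were pooled, edges 40 kb or less apart were merged, and a mock boundary was taken when it lay more than 200 kb from every PA+OA boundary. On the 13 chromosomes considered (1, 2, 4, 6, 7, 8, 9, 11, 12, 16, 17, 19 and 20), 256 of 1691 mock boundaries met this rule, out of 2519 mock boundaries on 23 chromosomes. That is a share of 15.1% (Wilson 95% interval 13.5 to 16.9%, counting error only). They are called far mock boundaries below.

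The cells were HepG2, an established line from a human liver cancer. The PA+OA library came from cells exposed for 48 h to palmitic acid at 120 µM, a saturated fatty acid, and oleic acid at 240 µM, a monounsaturated one, in medium with 1% albumin free of fatty acids. The mock library came from cells that received DMSO diluted 1 to 1000 for 48 h, and the labels can be read as giving both groups the same albumin medium. Each group was 1 Hi-C library with 1 deposited domain list, so there is no replicate, no test of the treatment was made, and each difference is between these 2 libraries. Hi-C sequences pairs of DNA fragments that were close together in the nucleus. The lists hold positions alone, in steps of 40 kb on hg38, so read depth is unknown and the labelled cell type could not be checked against marker genes.

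In vertebrate cells many domain boundaries form where the ring-shaped cohesin complex, which extrudes loops of chromatin, is stopped by the DNA-binding protein CTCF. Boundaries also tend to form at active genes, and a boundary can keep an enhancer from contacting genes on its other side. Boundaries shared between cell types usually lie in gene-rich chromatin, whereas inactive, gene-poor chromatin often forms long domains.

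Starts of 142 protein-coding genes lay within 1 bin (40 kb) of a far mock boundary, counting the most upstream start of each of the 10638 genes in the RefSeq promoter table. Of their promoters, 250 bases before the start to 50 after it, 9 (6.34%, interval 3.37 to 11.6%) held a loose form of the CTCF motif on either strand, spelled as CCA, 2 free bases, AG, 2 free bases and GGC. Of the 9, the windows of NUF2 and RGS5 overlap on opposite strands and are not separate sequences, and such overlaps were not removed from any of the sets compared. Among 1063 promoters within 1 bin of the other mock boundaries 37 did (3.48%, 2.54 to 4.76%), and among all 10638 promoters 303 (2.85%, 2.55 to 3.18%). The interval of the far boundaries overlaps that of the other mock boundaries. Its lower end, 3.37%, is close to the upper end for all promoters, 3.18%. Since it counts the NUF2 and RGS5 windows as 2, no separation is read from it. Neither difference was tested. Median GC content was 63.0% near far mock boundaries, 62.7% near the other mock boundaries and 62.7% in all promoters, so base composition was alike. The following RefSeq promoters (GRCh38.p14, each 5′ to 3′ on its own strand) are shown because their genes start within 1 bin of a far mock boundary. The adhesion receptor gene NECTIN2 is next to the apolipoprotein E cluster, MYCBP encodes a partner of MYC, and CREB3L2 encodes a transcription factor of the endoplasmic reticulum. HSD17B13 encodes a lipid droplet enzyme of hepatocytes, and STAP1 encodes a signalling adaptor. They were chosen after their values were seen, and capitals mark matches to the CTCF letters.
NECTIN2 promoter (chr19:44846047-44846346, plus strand): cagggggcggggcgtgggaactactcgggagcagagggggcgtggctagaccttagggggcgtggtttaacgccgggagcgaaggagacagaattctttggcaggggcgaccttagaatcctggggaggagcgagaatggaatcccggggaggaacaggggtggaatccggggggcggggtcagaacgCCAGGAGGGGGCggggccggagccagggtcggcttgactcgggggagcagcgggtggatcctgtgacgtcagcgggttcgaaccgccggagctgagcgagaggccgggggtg
MYCBP promoter (chr1:38873329-38873628, minus strand): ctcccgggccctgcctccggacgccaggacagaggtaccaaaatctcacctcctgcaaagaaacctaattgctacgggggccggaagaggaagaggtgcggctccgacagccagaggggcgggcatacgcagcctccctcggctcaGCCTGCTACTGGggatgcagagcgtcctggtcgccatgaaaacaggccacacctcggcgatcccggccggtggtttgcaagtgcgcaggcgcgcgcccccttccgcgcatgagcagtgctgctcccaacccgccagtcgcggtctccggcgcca
CREB3L2 promoter (chr7:138002037-138002336, minus strand): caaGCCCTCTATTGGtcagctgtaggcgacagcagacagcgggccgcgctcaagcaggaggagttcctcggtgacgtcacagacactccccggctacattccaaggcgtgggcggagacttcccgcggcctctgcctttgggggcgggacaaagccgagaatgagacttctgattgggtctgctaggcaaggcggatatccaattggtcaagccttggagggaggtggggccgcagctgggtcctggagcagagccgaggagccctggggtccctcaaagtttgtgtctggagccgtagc
HSD17B13 promoter (chr4:87322833-87323132, minus strand): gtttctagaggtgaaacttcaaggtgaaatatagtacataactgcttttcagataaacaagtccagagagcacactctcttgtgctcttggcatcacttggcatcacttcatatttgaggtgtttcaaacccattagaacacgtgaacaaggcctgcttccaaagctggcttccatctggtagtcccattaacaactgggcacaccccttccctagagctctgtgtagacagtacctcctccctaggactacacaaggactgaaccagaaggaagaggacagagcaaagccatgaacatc
STAP1 promoter (chr4:67558477-67558776, plus strand): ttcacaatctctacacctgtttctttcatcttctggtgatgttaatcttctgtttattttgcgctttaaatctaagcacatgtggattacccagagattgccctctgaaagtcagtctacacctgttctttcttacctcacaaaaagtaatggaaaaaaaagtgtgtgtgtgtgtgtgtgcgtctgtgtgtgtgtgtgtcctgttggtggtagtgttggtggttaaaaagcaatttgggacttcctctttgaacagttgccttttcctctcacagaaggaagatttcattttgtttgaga
The starts of NECTIN2, MYCBP and STAP1 lay 6.30, 6.62 and 1.27 kb from a far mock boundary, and those of CREB3L2 and HSD17B13 lay 37.9 and 37.1 kb from one. These gaps are finer than the 40 kb bins resolve. The HSD17B13 and STAP1 promoters held no match in these letters and were poor in CG dinucleotides, with 1 and 2 of them against a median of 22 in all promoters. Promoters within 1 bin of a far mock boundary had a median of 22 as well, so these 2 are not typical of them.

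Far mock boundaries stood at a median of 560 kb from the nearest PA+OA boundary, with quartiles at 400 and 960 kb. The lowest distance was 240 kb, which 15 of them had, and 11 had 280 kb. Just outside the threshold, 16 mock boundaries stood at 200 kb and 38 at 160 kb. At the other end, 150 were more than 500 kb away, 60 more than 1000 kb and 10 more than 2000 kb. The highest distance was 7400 kb, at 19920000 on chromosome 9 inside SLC24A2, a sodium, calcium and potassium exchanger gene, in a PA+OA domain of 26440 kb. Boundaries were sparse there in both lists, and the mock neighbours of this one were 19080 and 7400 kb away. Chromosome 9 had 37 mock and 38 PA+OA boundaries, fewer than every other chromosome considered except chromosome 19. Distances chose these boundaries and are given as a description. Of the 1691 mock boundaries, 1121 stood in the same bin as a PA+OA boundary, 151 within 1 bin and 163 more than 1 bin and up to 200 kb away.

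**Figure D1:**
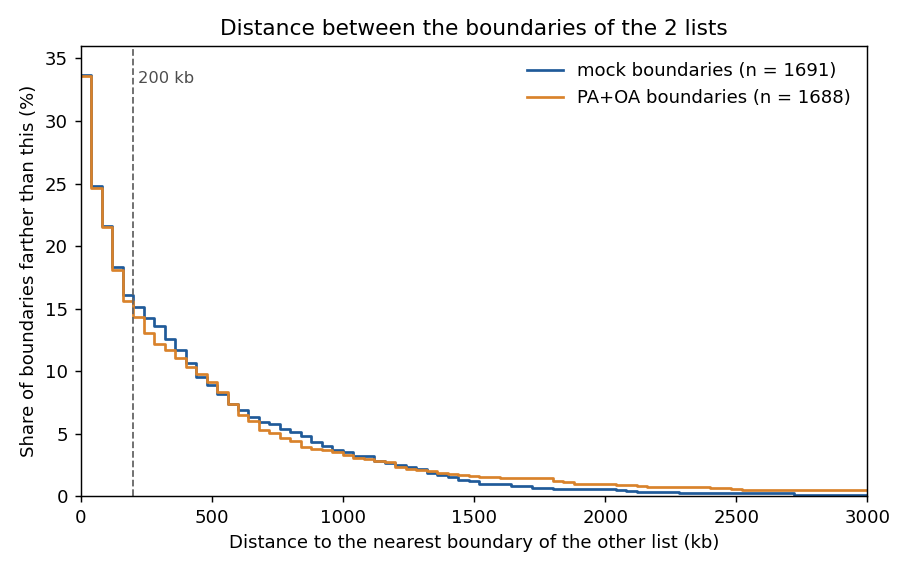
Share of boundaries (y axis, %) that lie farther than a given distance (x axis, kb) from the nearest boundary of the other list, for 1691 mock and 1688 PA+OA boundaries, with a dashed line at 200 kb. The curves run close together, and at the dashed line they stand at 15.1% and 14.3%.

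The reverse comparison gave a similar number: 242 of 1688 PA+OA boundaries (14.3%, interval 12.7 to 16.1%) lay more than 200 kb from every mock boundary. The intervals of both shares overlap. On these chromosomes the lists had nearly as many boundaries, 1691 and 1688, which favours similar counts, so the similarity is a description.

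By chromosome, far mock boundaries made up 25.5% of the mock boundaries of chromosome 4 (41 of 161, interval 19.4 to 32.7%) and 8.43% of those of chromosome 11 (15 of 178, 5.17 to 13.4%). These intervals do not overlap each other, but both chromosomes were picked as the highest and the lowest of the 13. The intervals also treat neighbouring boundaries as independent, and the difference was not tested. On the other 11 chromosomes the share lay between 13.4%, on chromosome 17, and 21.6%, on chromosome 9, where 37 mock boundaries give an interval of 11.4 to 37.2%. The far PA+OA boundaries followed the same order at its ends among chromosomes with over 100 boundaries, with 23.2% on chromosome 4 and 6.63% on chromosome 11. Over all 13, chromosomes 19 (28.0%, 7 of 25) and 9 (23.7%, 9 of 38) stood above chromosome 4 for PA+OA. Distances on chromosome 4 were also long, with a median of 880 kb. Without chromosome 4 the share over the other 12 chromosomes was 14.1%.

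**Figure D2:**
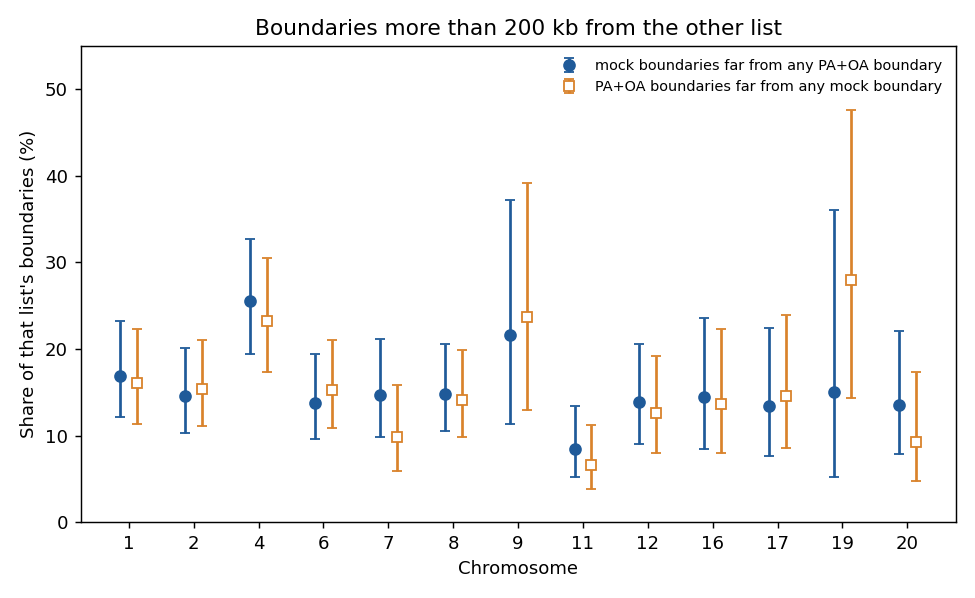
Share of each list's boundaries (y axis, %) that lie more than 200 kb from the other list, by chromosome (x axis), with Wilson 95% intervals as bars. Filled circles are mock boundaries and open squares PA+OA boundaries. Chromosome 4 stands at 25.5% and 23.2%, and chromosome 11 at 8.43% and 6.63%.

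Many far mock boundaries were neighbours of each other. The 256 formed 193 runs of consecutive mock boundaries: 147 stood alone, 34 runs held 2, 7 runs held 3 and 5 runs held 4. Thus 109 (42.6%, interval 36.7 to 48.7%) had another far boundary as a direct neighbour in the mock list. The rule favours such runs, since every mock boundary more than 200 kb inside a PA+OA domain meets it. This share is therefore a description, and no expected share was worked out. In 100 runs, with 126 boundaries (49.2%), the mock boundaries on both sides of the run had a PA+OA boundary within 1 bin and no PA+OA boundary lay between them, so the PA+OA list joined the domains there. In 75 runs, with 107 boundaries (41.8%), the PA+OA list placed 112 boundaries between the neighbours of the run, more than 1 bin from each. Some of the 112 stood 200 kb or less from a neighbour, as at 165240000 on chromosome 1, beside a neighbour at 165360000. These can be shifted counterparts of the neighbour, and they were not counted apart. By this count the PA+OA list had fewer boundaries than the mock run in 17 of the 75, as many in 37 and more in 21. In 17 further runs, with 22 boundaries, there was none between the neighbours but a neighbour had no PA+OA boundary within 1 bin. The remaining run was the last mock boundary of chromosome 12, at 132520000 inside FBRSL1, which lay beyond the end of the PA+OA list.

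The 5 runs of 4 lay on chromosomes 1, 4 and 6. On chromosome 6, far mock boundaries at 8960000, 9560000, 10000000 and 10440000 fell in 1 PA+OA domain of 3240 kb, from 7600001 to 10840000, and nothing of the PA+OA list lay between. The nearest gene to 3 of them was TFAP2A, which encodes a transcription factor of the neural crest and epidermis, and the last was 20.3 kb from its record. On chromosome 1, boundaries at 162600000 inside UAP1, an enzyme gene of nucleotide sugar synthesis, and at 162840000, near CCDC190, lay in a PA+OA domain of 3200 kb. The same domain held those at 163360000, 4.24 kb from the kinetochore gene NUF2, and at 164360000.

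Chromosome 4 held 3 of the 5 runs of 4. Boundaries at 19200000, 19720000, 22720000 and 23200000 lay in a stretch of few genes. The axon guidance gene SLIT2 was nearest to the first pair, 1052 and 532 kb away. The third was 204 kb from ADGRA3, and the last of this run was 592 kb from PPARGC1A, which encodes a coactivator of mitochondrial and fasting genes in liver. The PA+OA list placed 3 boundaries elsewhere in that stretch. Another run, at 79640000, 81040000, 81400000 and 82000000, lay in a PA+OA domain of 5480 kb, and its second boundary was inside BMP3, a growth factor gene of bone. The third was 26.4 kb from RASGEF1B, and the others were 232 kb from GK2 and 352 kb from HNRNPD.

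The run with the longest reach on chromosome 4 lay in a PA+OA domain of 11640 kb, from 58960001 to 70600000. Its far mock boundaries were at 59720000, at 67560000 inside STAP1, at 68320000 inside YTHDC1, which encodes a reader of methylated RNA, and at 69280000. This last one was 0.475 kb from the record of UGT2B28, a gene of the UGT2B family, whose enzymes attach glucuronic acid to steroids, bile acids and drugs. UGT2B7 of the same family ended 167 kb from it. The boundary at 67560000 was the farthest of its chromosome, 3040 kb from the PA+OA list. A run of 3 on chromosome 9, at 67440000, 67600000 and 68000000, lay at the left end of a PA+OA domain of 19760 kb, and the next mock boundary was 18920 kb to its right. Its boundaries were 97.6 to 419 kb from ANKRD20A1.

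**Figure D3:**
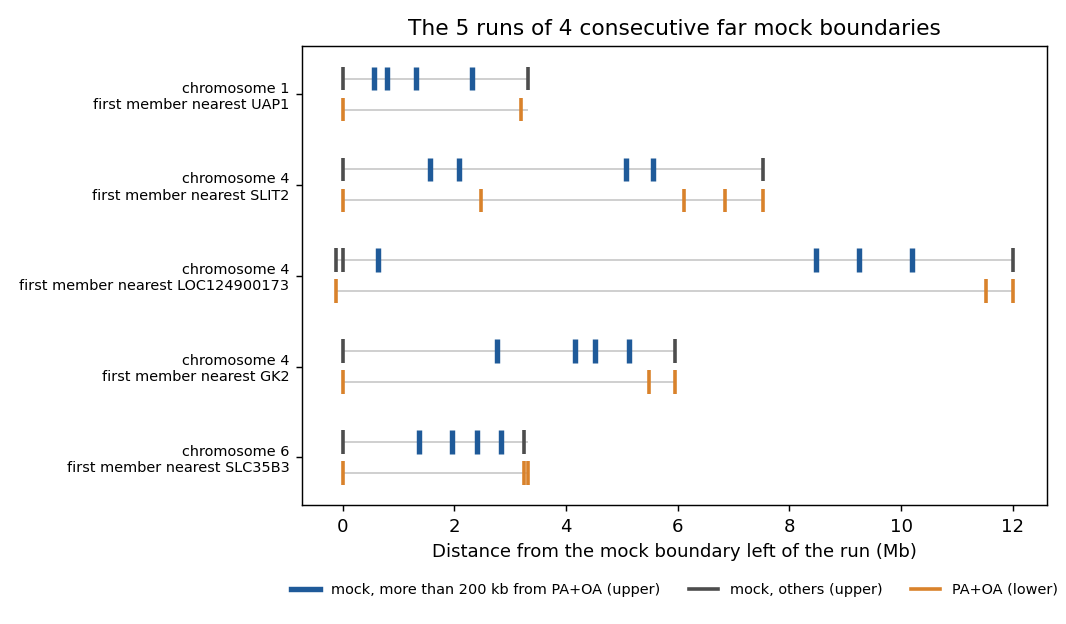
Boundaries around the 5 runs of 4 consecutive far mock boundaries, as distance in Mb (x axis) from the mock boundary to the left of each run. In each pair of lines the upper line holds mock boundaries, with far ones thick and blue, and the lower line holds PA+OA boundaries. On chromosome 6 no PA+OA boundary stands between the neighbours of the run, and in the stretch near SLIT2 on chromosome 4 there are 3.

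Of the farthest boundaries on each of the 13 chromosomes, 7 were inside a gene record and 6 were 79.5 to 535 kb from the nearest one. At 55960000 on chromosome 1, 2120 kb from the PA+OA list, the lipid phosphatase gene PLPP3 was nearest, 535 kb away, and no protein-coding gene had its middle within 500 kb. At 89640000 on chromosome 7 (2400 kb) the nearest gene, ZNF804B, was 301 kb away. At 77360000 on chromosome 8 (1440 kb) it was the peroxisome gene PEX2, 359 kb away. At 104400000 on chromosome 11 (1720 kb) it was the growth factor gene PDGFD, 236 kb away. At 53240000 on chromosome 2 (2040 kb) it was ASB3, 430 kb away, and at 59000000 on chromosome 12 (1200 kb) it was LRIG3, 79.5 kb away.

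Among the 7 inside a gene record, the one at 84080000 on chromosome 16, 1720 kb from the PA+OA list, was inside MBTPS1, the gene of the protease that starts the cleavage of sterol regulatory element-binding proteins. It had 15 genes within 500 kb. Chromosome 17 had its farthest at 44040000 inside LSM12 (1160 kb), with 26 genes within 500 kb, and chromosome 19 at 16520000 inside C19orf44 (1440 kb), with 19. Chromosome 6 had it at 127280000 inside RNF146 (1520 kb), a ubiquitin ligase gene, with 6 genes, and chromosome 20 at 51640000 inside ATP9A (1120 kb), with 5. The remaining 2 were those inside SLC24A2 and STAP1 described above.

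Far mock boundaries had fewer genes around them than boundaries common to both lists. The median number of protein-coding genes with their middle within 500 kb was 4 (quartiles 1 and 9.25) for the 256 far mock boundaries and 7 (3 and 12) for the other 1435. It was 7 (4 and 12) for the 1121 in the same bin as a PA+OA boundary. No such gene was within 500 kb of 40 far mock boundaries (15.6%, interval 11.7 to 20.6%), of 106 of the other 1435 (7.39%, 6.14 to 8.86%) and of 46 of the 1121 (4.10%, 3.09 to 5.43%). The median at far mock boundaries was lower than at the other mock boundaries on 9 of 13 chromosomes, equal on 1 and higher on 3. The 3 were chromosomes 12 (11 against 7), 16 (12 against 9) and 17 (16 against 10).

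This was not particular to boundaries more than 200 kb away. The 314 mock boundaries that stood above 0 and up to 200 kb from the PA+OA list had a median of 5 genes (quartiles 1 and 11), and 60 of them (19.1%, 15.1 to 23.8%) had none. The 242 far PA+OA boundaries had a median of 4 and 29 without a gene (12%, 8.47 to 16.7%). Over all 46317 edges of 40 kb bins in the stretch that the mock list covers, the median was 5 and 14.3% had none. By this measure the surroundings of far mock boundaries resembled the covered stretch at large, and those of boundaries in the same bin held more genes. Neighbouring boundaries share genes, so these classes were not tested against each other.

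**Figure D4:**
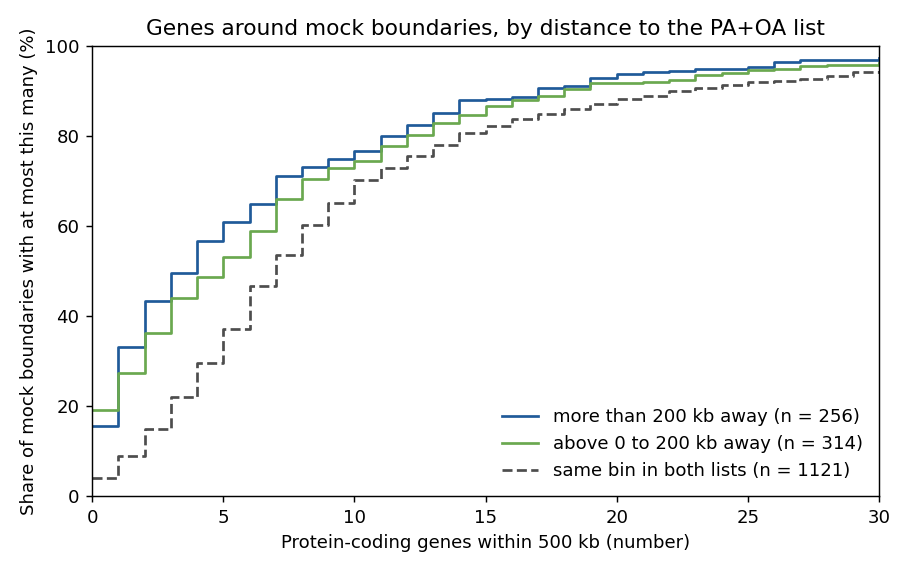
Share of mock boundaries (y axis, %) with at most a given number of protein-coding genes within 500 kb (x axis), in 3 classes of distance to the PA+OA list. The curves of the 256 boundaries more than 200 kb away and of the 314 above 0 and up to 200 kb away run above that of the 1121 in the same bin, and at 0 genes they stand at 15.6%, 19.1% and 4.10%.

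The rule favours mock boundaries with distant neighbours, so the lengths of the domains beside them are given as a description. The median gap to the next mock boundary on either side was 800 kb (quartiles 480 and 1520) for far mock boundaries and 600 kb (360 and 1200) for the other mock boundaries. It was also 800 kb for the far PA+OA boundaries in their own list. Of the 286 mock boundaries with a mock neighbour within 200 kb 7.34% were far from the PA+OA list, and of the other 1405 16.7% were. The PA+OA domains that held them had a median of 2200 kb per boundary. There were 200 such domains with a median of 1920 kb, against 600 kb for all 1709 PA+OA domains above zero length on these chromosomes. The rule itself demands PA+OA domains above 400 kb away from chromosome ends, so this length too is a description. Of the 200, 159 held 1 far mock boundary.

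Gene-dense places were not absent. The 5 far mock boundaries with most genes within 500 kb had 33 to 76. The highest number, 76, belonged to the one at 520000 on chromosome 19, which was 0.346 kb from TPGS1. The one at 7360000 on chromosome 8, inside the zinc finger gene ZNF705G, had 42, and the one at 81520000 on chromosome 17, inside FSCN2, had 35. The one at 30480000 on chromosome 6 had 33 and was 9.51 kb from HLA-E, a gene of the major histocompatibility complex. The one at 920000 on chromosome 11 had 37, was 4.79 kb from CHID1 and was 94.4 kb from PNPLA2, which encodes the main triglyceride lipase of lipid droplets.

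A far mock boundary was inside a protein-coding gene record in 102 cases (39.8%, interval 34.0 to 45.9%), and another mock boundary in 704 of 1435 (49.1%, 46.5 to 51.6%). Mock boundaries above 0 and up to 200 kb away gave 40.1% (34.9 to 45.6%), close to the far ones. Whether such an edge falls in an exon or an intron was not analysed here, since a bin spans more than most exons.

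A long gene record spans more positions than a short one, and 107 genes held a far mock boundary. The longest was CSMD1 on chromosome 8 (2060 kb, boundary at 3640000), followed by GALNTL6 on chromosome 4 (1228 kb, boundaries at 172200000 and 172880000) and NRG1 on chromosome 8 (1135 kb, boundary at 32240000). HDAC9 on chromosome 7 (916 kb, boundary at 18440000) and SNTG1 on chromosome 8 (887 kb, boundary at 50440000) came next. CSMD1 encodes a complement-regulating membrane protein of neurons, GALNTL6 a protein of the family that starts O-linked sugar chains, and NRG1 a ligand of receptor tyrosine kinases of the ERBB family. HDAC9 encodes a histone deacetylase. The boundary inside NRG1 left 52.9% of the record to its left, and that inside CSMD1 left 34.2%.

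Of 13902 protein-coding genes on these chromosomes, 301 (2.17%) had their record within 50 kb of a far mock boundary, and 2478 (17.8%) within 50 kb of another mock boundary. Among 191 genes above 500 kb in length, 20 (10.5%, interval 6.88 to 15.6%) were near a far mock boundary and 74 (38.7%) near another one. Among 6621 genes of up to 20 kb, 93 (1.40%, 1.15 to 1.72%) and 926 (14%) were. Of the genes near any mock boundary, those near a far one made up 10.9% over all lengths. By length they were 9.13% up to 20 kb, 11.5% from 20 to 100 kb, 10.9% from 100 to 500 kb and 22.2% above 500 kb, where the share is 20 of 90 genes. The middle classes show no steady rise with length.

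Genes of lipid metabolism and liver function lay near far mock boundaries about as rarely as genes at large. Of 239 genes on lists of lipid metabolism, liver function, stress, inflammation and liver cancer, 3 (1.26%, interval 0.428 to 3.62%) were within 50 kb of one, beside 2.17% of all genes. They were ACSL1, HSD17B13 and SLCO1B1. These genes were near other mock boundaries in 40 cases (16.7%, beside 17.8%). Of 69 genes on lists of cadherins and of neuronal adhesion and synapse genes, 5 (7.25%, 3.13 to 15.9%) were near a far mock boundary, and all 5 had records above 500 kb, as did 41 of the 69.

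ACSL1 encodes an enzyme that activates long-chain fatty acids for oxidation and storage. Its record, from 184755595 to 184826594 on chromosome 4, lay 35.6 kb from a far mock boundary at 184720000, which was 400 kb from the PA+OA list. In the mock list the boundary set ACSL1 and HELT, in a domain of 400 kb, apart from a domain of 480 kb with 5 genes, among them the transcription factor gene IRF2. In the PA+OA list these genes lay together in a domain of 2680 kb from 182440001 to 185120000. A second far mock boundary at 184240000, 22.1 kb from ENPP6, lay in the same PA+OA domain. ACSL1 was the only one of 23 genes of fatty acid oxidation and ketogenesis within 50 kb, and 6 of the 23 were that near to another mock boundary.

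HSD17B13 lay from 87303794 to 87322882 on chromosome 4, 37.1 kb from a far mock boundary at 87360000 inside the neighbouring gene HSD17B11, which encodes a related lipid droplet enzyme. The mock list had HSD17B13 in a domain of 440 kb with AFF1 and KLHL8. By its middle, HSD17B11 was in the next domain, of 720 kb, with 10 genes that included NUDT9, SPP1 and PKD2. The PA+OA list had 1 domain of 1160 kb over both, from 86920001 to 88080000. The outer edges were equal in both lists, so the far boundary was the sole difference of this stretch. Of 21 genes of triglyceride synthesis, storage and lipolysis HSD17B13 alone was within 50 kb of one. The start of HSD17B13, whose promoter is printed above, faces the boundary.

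SLCO1B1 encodes a transporter that takes bile acids, bilirubin and statins into hepatocytes. Its record, from 21131194 to 21239796 on chromosome 12, ended 40.2 kb from a far mock boundary at 21280000, which was inside SLCO1A2, another gene of this transporter family. That boundary was 240 kb from the PA+OA list, the lowest distance among far mock boundaries. SLCO1B1 and SLCO1B3 lay in a mock domain of 2440 kb, and SLCO1A2 with 4 other genes in the next, of 240 kb. In the PA+OA list 1 domain of 2680 kb held all of them. Of 22 genes of bile acids and drug metabolism, 1 was within 50 kb of a far mock boundary and 1 of another mock boundary.

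In 10 of the 15 lists no gene was within 50 kb of a far mock boundary. They were fatty acid and cholesterol synthesis (0 of 26, which allows a share of up to 11.5%), lipoproteins (0 of 27, up to 11.1%), hepatocyte secreted proteins (0 of 24, up to 12.5%), hepatocyte transcription factors and nuclear receptors (0 of 21, up to 14.3%) and fatty acid uptake (0 of 12, up to 25%). The others were endoplasmic reticulum stress (0 of 14, up to 21.4%), inflammation (0 of 28, up to 10.7%), liver cancer (0 of 21, up to 14.3%), chromatin architecture (0 of 19, up to 15.8%) and housekeeping (0 of 20, up to 15%). At 2.17% of all genes, lists of this size would mostly hold few or none, so their 0 counts are not a result about them. Genes between 50 and 100 kb away included CCL2, a chemokine gene, at 55.3 kb, APOE at 65.8 kb, APOC1 at 74.3 kb, SOCS3, a feedback inhibitor of cytokine signalling, at 79.1 kb, and CYP7B1, a gene of bile acid synthesis, at 81.3 kb. EIF2AK3, a kinase gene of endoplasmic reticulum stress, was at 91.9 kb. Also in this range were PDS5A of the chromatin architecture list at 62.1 kb, MACROD2 of the synapse list at 75.5 kb, and PNPLA2 at 94.4 kb. Within 100 kb there were 17 of 347 listed genes, beside 3.42% of all genes.

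Among adhesion genes, CDH4, which encodes a cadherin of retina and brain, held a far mock boundary at 61280000 on chromosome 20, 4.03% into its record from the left. GRM5, a glutamate receptor gene, held one at 88680000 on chromosome 11. CSMD1 and NRG1 held those given above, and CSMD2 started 34.2 kb from one at 34200000 on chromosome 1. Of the 20 cadherin and protocadherin genes 1 was within 50 kb, and of the 49 neuronal adhesion and synapse genes 4 were. Near other mock boundaries the counts were 2 and 19.

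A wider measure counts genes whose middle lay in a PA+OA domain with at least 1 far mock boundary inside, that is, in a stretch the mock list divided further. It was chosen after the data were seen. Of all 13902 genes, 3161 (22.7%) did so. Of the 239 lipid, liver, stress, inflammation and liver cancer genes 49 did (20.5%), and of the 69 adhesion and synapse genes 24 (34.8%). The adhesion and synapse genes had a median record of 788 kb, beside 21.9 kb for all genes. Shares by this measure were not matched for record length. The count was 2 of 23 for fatty acid oxidation and ketogenesis, among them ACSL1. It was 8 of 22 for bile acids and drug metabolism, among them UGT2B7, CYP2B6 and CYP2A6. For triglyceride synthesis, storage and lipolysis it was 7 of 21, among them PNPLA2, HILPDA and DGAT2. For fatty acid and cholesterol synthesis it was 4 of 26, among them SREBF1 and CYP51A1.

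Some further far mock boundaries lay by genes of liver biology that the counts within 50 kb do not include, named here after their positions were seen. At 39440000 on chromosome 4 a far mock boundary was inside KLB, the co-receptor gene of endocrine fibroblast growth factors, in a PA+OA domain of 2160 kb. At 138040000 on chromosome 7 one was 36.5 kb from AKR1D1, a reductase gene of bile acid synthesis. It formed a run with the one at 137880000 inside CREB3L2, 160 kb to its left, in a PA+OA domain of 2920 kb. At 72120000 on chromosome 17 one was 1.02 kb from SOX9, a transcription factor gene of bile duct cells, 1120 kb from the PA+OA list. At 22320000 on chromosome 20 the nearest gene was FOXA2, a listed liver transcription factor gene, 261 kb away.

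On chromosome 16 the nearest gene was a member of the NPIP family for 4 of 12 far mock boundaries (33.3%), at 14960000, 16360000, 21400000 and 22560000, and for 5 of 71 other mock boundaries there (7.04%). The mock list had domain entries of zero length at 16360000, 21400000 and 22560000, and none at 14960000. Leaving all entries of zero length out kept the number of far mock boundaries at 256. The number of all mock boundaries also stayed at 1691, so this could not show whether a boundary depends on such entries. NPIP genes are near-identical copies spread over the short arm of this chromosome by segmental duplication. Reads from such copies are hard to place, and whether this bears on the boundaries was not tested. The same microRNA genes stood beside the first pair, as copies. MIR6511A1 and MIR6770-1 lay 34.0 and 29.1 kb from the boundary at 14960000, and MIR6511A3, MIR6511A2 and MIR6770-2 lay 8.88, 35.3 and 30.6 kb from that at 16360000. The mature sequences below (RefSeq, GRCh38.p14, seed in capitals) were identical between the copies, and the wider sequence around them was not compared.
hsa-miR-6511a-5p: cAGGCAGAaguggggcugacagg
hsa-miR-6770-5p: uGAGAAGGcacagcuugcacguga
The pattern was noticed in these data and was not tested.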

How the data were processed

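For each library the authors deposited 1 list of domains, which holds only chromosome, start and end. FastQC, HiC-Pro and the build hg38 are named in the submitters' processing notes. Which program called the domains, its settings, the normalization and the depth are not given in these sources. From the deposited positions, edges were pooled, merged and compared in Python 3.11.15 with pandas 2.3.3 and numpy 2.4.6. The code was checked on simulated lists from which single, well separated boundaries were removed. The others were moved by at most 1 bin, so runs of far boundaries and longer shifts were not simulated. Shares have Wilson 95% intervals (scipy 1.17.1), which cover counting error only. Depth sets no interval here, as it is unknown. Genes and promoters came from RefSeq (GRCh38.p14), the same build as hg38. Counts within 500 kb used the middle of a gene's record, and those within 50 kb the gap to the record. Of 499 listed genes, 497 matched the table and 347 were protein-coding genes on the 13 chromosomes. Named boundaries were the farthest of each chromosome, those in the 5 PA+OA domains with most far mock boundaries, the 5 with most genes, those in the 5 longest genes and the 3 longest runs. Named genes were listed genes within 50 kb. Some genes farther away are named in addition, outside this rule. The boundaries, lists and alternatives were chosen with earlier results of these data known. With 1 library per group no test was made. Some genes beside these boundaries are not reported here.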

Additional observations from a re-analysis of the deposited data

How the results depend on the processing

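The number of far mock boundaries stayed within 1.5 times 256 under the alternatives run except the longest distance. Asking for more than 120, 400 or 800 kb gave shares of 18.3%, 10.6% and 5.14% of mock boundaries, and 87 boundaries beyond 800 kb, which follows from the threshold itself. Leaving out each chromosome in turn gave 215 to 253 boundaries and shares of 14.1 to 15.9%. Medians of genes within a window moved with its width, to 1.5 against 3 at other mock boundaries within 250 kb and to 9 against 13 within 1000 kb, always lower at far mock boundaries. Without each chromosome they were 3 to 4 against 6 to 7. Of 347 listed genes, 8 were within 50 kb of a far mock boundary, 4 within 25 kb and 17 within 100 kb, beside 2.17%, 1.55% and 3.42% of all genes. Taking the middle of each record, an alternative chosen after seeing the data, left 2 within 50 kb beside 1.52% of all genes, and at 25 kb ACSL1, HSD17B13 and SLCO1B1 were not among the 4. No paired analysis was possible because each group has 1 library. Neither library has a known depth or a repeat, so it cannot be said how much of the difference between the lists lies within repeat Hi-C of the same cells.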

Other observations

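Of 974 microRNA hairpins that the RefSeq table lists on the 13 chromosomes, 10 (1.03%) lay within 50 kb of a far mock boundary and 128 (13.1%) within 50 kb of another mock boundary. Protein-coding records of up to 20 kb gave 1.40% and 14%, close to these shares. Of the 10, 5 were the copies of MIR6511A and MIR6770 on chromosome 16. The other hairpins were MIR4784, MIR3140, MIR3165, MIR3180-1 and MIR6773. These counts are of hairpin entries alone and leave out MIR548AC, MIR5689 and MIR6756, whose mature sequences lay 0.038, 0.254 and 47.0 kb from a far mock boundary.

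Entries of zero length in the mock list stood at 18 of 256 far mock boundaries (7.03%, interval 4.49 to 10.8%) and at 77 of the other 1435 (5.37%, 4.31 to 6.66%), and these intervals overlap. The longest stretch without any RefSeq gene record was taken on each chromosome, and reached 21.7 Mb on chromosome 1. These stretches held 10 of the 256 far mock boundaries, on 6 chromosomes, and 48 of the other 1435. Leaving these stretches out kept the medians of genes within 500 kb at 4 and 7. At 28400000, 28640000 and 28800000 on chromosome 20 a run of 3 far mock boundaries had no protein-coding gene within 500 kb, in a PA+OA domain of 1000 kb.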
